A study of Mus musculus with 16 samples.

Results

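The comparison described here is that of splenic donor CD8+ T cells after allogeneic transplantation with splenic donor CD8+ T cells after syngeneic transplantation in mice. Its members are the arrays whose titles place them in these groups, 3 allogeneic and 3 syngeneic, which makes 6 of the 16 arrays of a study of donor T cells in graft versus host disease of the ovary. The other 10 arrays hold ovarian CD8+ cells (4 arrays), ovarian CD4+ cells (2) and splenic CD4+ cells (2 allogeneic and 2 syngeneic), and they enter here through the shared estimate of the spread and, for the splenic CD4+ cells, through a test of the difference between the cell types. All groups are labelled as female with C57BL/6 as strain background, and all received a hematopoietic stem cell transplant, the syngeneic controls included. The labels used here give no recipient strain, age, day after transplantation, conditioning or marker by which donor cells were told from host cells, and no gene was deleted or transgenic according to them. Up to 10000 cells per sample were sorted, with a second round of sorting, straight into the lysis reagent, so each array is a bulk measurement on amplified RNA, in which fewer cells of a type and less RNA per cell cannot be told apart. Nothing in the labels says that the arrays of a group came from separate animals, and p-values then measure only the spread between these samples, which may be technical.

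As background, an allogeneic transplant brings donor T cells into a recipient whose histocompatibility antigens differ from those of the donor, while in a syngeneic transplant donor and recipient are genetically matched. CD8+ T cells that recognise antigen leave the naive state, divide, and acquire granule proteins, cytokines and homing receptors with which they kill target cells in tissues. Antigen that persists keeps inhibitory receptors and the transcription factor TOX on such cells, and in graft versus host disease the alloreactive T cells meet antigen on many tissues of the recipient. The spleen is a secondary lymphoid organ through which naive, dividing and effector T cells all pass.

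The 75th percentile of the signal, used here to scale each array, was 189.3 to 449.7 units on the allogeneic and 156.2 to 245.3 units on the syngeneic arrays, and 52.35% to 59.37% of allogeneic and 52% to 55.05% of syngeneic spots were well above background. Over the kept features, arrays correlated at 0.964 to 0.982 within the allogeneic group, 0.981 to 0.992 within the syngeneic group and 0.895 to 0.925 between groups. Allogeneic replicates 1 and 2 and syngeneic replicate 1 lay on 1 slide, and allogeneic replicate 3 and syngeneic replicates 2 and 3 lay on another, so that each slide held both groups. Allogeneic replicate 1 stood apart in another way. Of its spots, 188 of the 13963 above the 75th percentile on the other allogeneic arrays read more than 4-fold below the lowest of them, against 0 to 29 such spots on the other splenic CD8 arrays, and 12 of its 144 blocks of spots hold 172 of these spots. Splenic CD4 allogeneic replicate 1 held 701 such spots. Leaving those blocks out, an alternative chosen after the data were seen, changed the call or direction of 0 of the 170 genes chosen for naming. Values without the blocks are given where they change a printed gene's call or move its difference by over 1.5 times, and for Lag3, Klrg1 and Cdca8.

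Levels are log2 processed signal relative to the array's 75th percentile, a difference is the allogeneic minus the syngeneic mean on this log2 scale with its standard error (SE, n = 3 and 3), and a gene is called higher or lower where limma's moderated test across all features gave a Benjamini-Hochberg adjusted p under 0.05. Levels are compared within a gene only, since probes differ in brightness. Of 25105 features measured, 10012 (39.9%) were called, 4563 (18.2%) higher and 5449 (21.7%) lower in allogeneic cells, and on 13852 (55.2%) the arrays of the groups did not overlap. Among the 13009 features with a gene symbol, 5448 (41.9%) were called, 3239 (24.9%) higher and 2209 (17.0%) lower, and 7443 (57.2%) did not overlap. The median difference was -0.19 over all features and 0.04 over those with a symbol. Called genes with a symbol that rose by more than 4-fold numbered 888, and 421 fell by more than 4-fold. The counts of list members below are to be read against these shares.

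**Figure D1:**
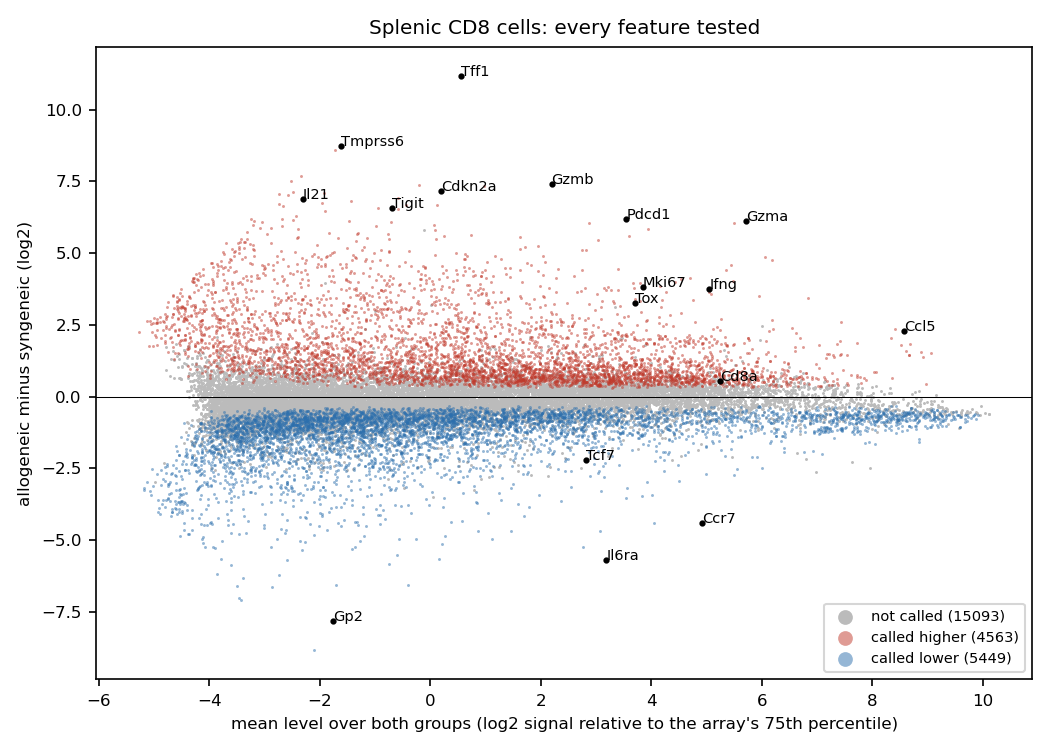
Mean log2 level of each of the 25105 features over the 6 splenic CD8 arrays (horizontal axis) against the allogeneic minus syngeneic log2 difference (vertical axis), with features called higher, called lower and not called in separate colours. The plot shows 4563 features called higher and 5449 called lower, on either side of 0.

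The sort labels were checked first. Cd3e, a signalling subunit of the T-cell receptor complex, read 7.20, 7.26 and 7.89 on the allogeneic arrays and 6.99, 7.38 and 7.18 on the syngeneic arrays, and Cd8a, the first chain of the CD8 co-receptor, read 5.59, 5.48 and 5.46 against 5.14, 5.06 and 4.71. Neither was called (difference 0.27 ± 0.18, adjusted p = 0.256, and 0.54 ± 0.40, adjusted p = 0.298). For Cd8a the groups did not overlap, with an SD of 0.07 in allogeneic and 0.23 in syngeneic cells. Its SE rests on the spread shared by all groups, including splenic CD4 cells, where Cd8a averaged -5.00 (allogeneic) and -5.28 (syngeneic). The missing call therefore does not show that Cd8a was equal in the groups. Cd8b1, the second chain, read 6.01, 5.82 and 5.36 against 6.74, 6.51 and 6.31 and was called lower by a small step (-0.79 ± 0.25, adjusted p = 0.0229), a call lost without allogeneic replicate 3 (adjusted p = 0.0772), syngeneic replicate 1 (0.0789) or syngeneic replicate 2 (0.0559). Cd4 read 1.42, 1.77 and 2.05 against 2.12, 2.33 and 2.45, and its call (-0.55 ± 0.18, adjusted p = 0.0302) was lost without any of 4 arrays. The T-cell receptor and CD8 list as a whole had 7 members higher and 2 lower of 20, with a median difference of 0.23 and a summed log2 level of 10.91 to 10.92 in allogeneic and 10.62 to 10.83 in syngeneic cells. Zap70, the kinase that docks on the activated receptor, rose by 0.82 ± 0.13 (adjusted p = 0.000302), and Trat1, a transmembrane adaptor of the receptor, fell from 0.98, 1.44 and 0.56 to -0.63, -0.49 and -1.29 (-1.80 ± 0.26, adjusted p = 0.000184).

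Markers of other spleen cells were measured too. Of the 14 measured B cell genes 11 were lower in allogeneic cells and 0 higher (median difference -2.04), and their summed log2 level was 3.81 to 4.20 in allogeneic and 5.39 to 6.68 in syngeneic samples, highest in syngeneic replicate 3. Of 15 dendritic cell genes 6 were lower and 1 higher, with summed log2 levels of 6.66 to 7.66 against 7.97 to 9.49, and 3 were lower without allogeneic replicate 1, allogeneic replicate 2 or syngeneic replicate 3. The lower members include Ccr9 (-3.44), counted again below among the chemokine receptors, and the MHC class II pathway genes Cd74 (-1.90) and H2-Eb1 (-1.91). The list therefore does not mark dendritic cells alone. The macrophage and monocyte list (1 higher and 4 lower of 13) spanned 7.13 to 7.29 against 6.74 to 7.69. It had 7 higher and 2 lower on slide 1 alone and 5 higher and 2 lower without allogeneic replicate 3. Of 6 measured neutrophil genes and of 8 erythroid and platelet genes 1 each was called, of 3 plasma cell genes 1 (Derl3), and of 7 stroma and endothelium genes 1 was higher and 2 lower. The neutrophil list summed to log2 levels of 2.65, 7.73 and 8.09 against 8.05, 8.39 and 8.48, the lowest value through Csf3r in the dim blocks of allogeneic replicate 1 (difference -2.62, and -0.41 without the blocks). Some marker probes, of NK cells (Ncr1, Klrb1c), neutrophils (S100a8, S100a9), monocytes (Cd14) and endothelium (Cdh5), were not well above background on all arrays of either group. That does not show such cells to be absent, since other members of these lists were measured. The 4 lower macrophage and monocyte genes were Apoe (-1.87), Lyz1 (-2.07), Lyz2 (-1.39) and Itgam (-0.73), beside 1 higher. Of the stroma and endothelium genes Eng (-2.81) and Pecam1 (-0.96) were lower and Col1a1 (0.70) higher. The summed levels of the B cell and dendritic cell lists differed between the groups without overlap, those of the macrophage, neutrophil, erythroid, plasma cell and stroma lists overlapped, and the part of such cells in the results that follow was not tested.

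Genes of the killing machinery were higher in allogeneic CD8 cells, 16 of 19 measured, with 1 lower and a median difference of 2.11. Among the 17 above background on all 6 arrays, 14 were higher and 1 lower (median 2.11). Granzymes are serine proteases delivered into target cells through pores made by perforin. Gzma read 8.41, 8.53 and 9.36 on the allogeneic and 2.49, 2.65 and 2.80 on the syngeneic arrays, so the groups lay far apart, and it rose 69.6-fold (6.12 ± 0.71, adjusted p = 2.85e-05). Gzmb, whose spot was an outlier on allogeneic replicate 1 and was left out there, read 5.96 and 5.84 against -0.49, -1.58 and -2.47, a 170-fold rise (7.41 ± 0.43, adjusted p = 2.3e-07). Gzmk read 2.43, 2.18 and 1.03 against -1.31, -1.26 and -1.60 (3.27 ± 0.32, adjusted p = 6.59e-06). The exception among the granzymes was Gzmm, at 1.77, 1.88 and 1.13 against 2.97, 2.55 and 4.49, which fell by 1.74 on the log2 scale (SE 0.45, adjusted p = 0.00904). Prf1, perforin itself, went from 2.57, 2.26 and 2.12 to 4.48, 4.44 and 4.19, a 4.14-fold rise (2.05 ± 0.15, adjusted p = 7.77e-07). Fasl, the ligand of the death receptor FAS, rose from -0.20, -0.04 and -1.02 to 4.56, 4.41 and 4.52 (4.91 ± 0.33, adjusted p = 3.07e-07). Granule proteins and their handling followed: Nkg7 by 2.59 ± 0.15, the granule proteoglycan core Srgn by 0.85 ± 0.12, the granzyme-activating protease Ctsc by 1.32 ± 0.29, and the release factors Rab27a and Unc13d by 2.24 ± 0.19 and 0.81 ± 0.21. Serpinb9, the granzyme B inhibitor with which killers shield themselves, and Cst7, a cystatin of granules, rose by 2.11 ± 0.25 and 2.11 ± 0.22. Ctsw and Lamp1, the membrane protein of secretory lysosomes, were not called (0.33 ± 0.21, adjusted p = 0.233, and -0.48 ± 0.22, adjusted p = 0.099).

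**Figure D2:**
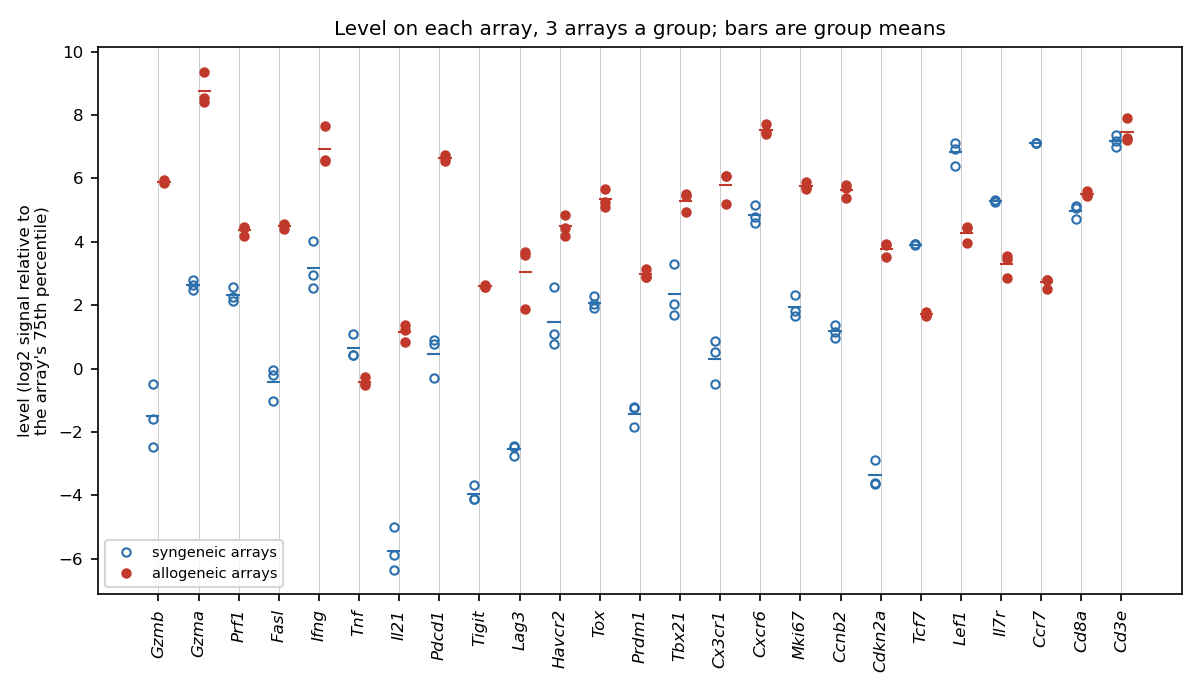
Log2 level relative to the array's 75th percentile (vertical axis) of selected genes on each of the 6 splenic CD8 arrays, with points for arrays in group colours and bars for the group means. Granzymes, Fasl, Pdcd1 and the cell cycle genes have all allogeneic points above all syngeneic points, Tcf7, Lef1, Il7r and Ccr7 have them below, and Cd3e overlaps.

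Secreted mediators split by kind. Of 15 measured cytokine and chemokine genes 10 were higher and 3 lower (median difference 3.19). Genes kept through the allogeneic group alone could hardly be called lower. With the filter set to above background on all 6 arrays, 5 of 10 were higher and 3 lower (median 1.33). Ifng, the interferon that activates macrophages and antigen presentation, read 6.55, 6.58 and 7.64 against 2.54, 2.94 and 4.04, a 13.5-fold rise (3.75 ± 0.54, adjusted p = 0.000167). Inflammatory chemokines rose together: Ccl3 from 0.70, 1.02 and 1.35 to 6.54, 6.55 and 7.52 (5.84 ± 0.40, adjusted p = 3.68e-07), Ccl4 by 4.59 ± 0.52 and Ccl5 by 2.28 ± 0.21. Several genes were measured in allogeneic cells only, with no syngeneic array well above background. Their folds are lower bounds under the scaling used here, setting the allogeneic mean against the floor of detection on the syngeneic arrays. Under 4 other scalings the differences themselves shrank, to as little as 2.88 for Il21 and 1.71 for Csf2. Il21, a cytokine better known from helper T cells, read 1.36, 0.85 and 1.21 and was at least 44.8-fold higher. Il10, which dampens inflammation, was at least 16.3-fold higher, Csf2, the granulocyte and macrophage growth factor, at least 14.2-fold, the chemokine Ccl1 at least 12.8-fold and Tnfsf11, the ligand RANKL, at least 3.13-fold (adjusted p between 9.93e-08 and 0.000299 over these 5 genes). In the opposite direction went the genes of the tumour necrosis factor locus. Lta read -1.68, -1.80 and -1.85 against 0.47, 0.35 and 0.48 (-2.21 ± 0.12, adjusted p = 7.38e-08). Tnf read -0.27, -0.53 and -0.48 against 0.43, 0.42 and 1.09 (-1.07 ± 0.33, adjusted p = 0.0202), a call lost without allogeneic replicate 2 (adjusted p = 0.0598) or syngeneic replicate 3 (0.0839). Il16 was the third gene called lower (-0.86 ± 0.31, adjusted p = 0.0423). Probes of Il2, Il4 and Il13 were not well above background on all arrays of either group.

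Inhibitory receptors restrain T cells that meet antigen repeatedly. Of 18 measured genes of this list, 12 were higher, 1 was lower and the median difference was 3.04. Among the 16 above background on all 6 arrays, 10 were higher and 1 lower (median 3.01). Not every member is such a receptor, since the list also holds the TNF receptor gene Tnfrsf1b (3.01 ± 0.28), Entpd1 and Cd274. Pdcd1, which encodes PD-1, read 6.63, 6.73 and 6.55 against 0.76, 0.90 and -0.29, a 72.5-fold rise (6.18 ± 0.29, adjusted p = 1.89e-08). Tigit read 2.64, 2.58 and 2.56 against -3.66, -4.12 and -4.13, with 1 of the 3 syngeneic arrays well above background (6.56 ± 0.18, adjusted p = 1.02e-09). Its rise shrank to as little as 3.94 under 4 other scalings. Lag3, a receptor for MHC class II, read 1.87, 3.58 and 3.67 against -2.76, -2.47 and -2.43, where the low allogeneic value lies in the dim blocks of replicate 1. Its rise of 5.59 ± 0.54 (adjusted p = 6.15e-06) was 6.18 without them. Havcr2, which encodes TIM-3, read 4.44, 4.18 and 4.85 against 0.79, 1.09 and 2.56 (3.01 ± 0.54, adjusted p = 0.000804), and syngeneic replicate 3 lay well above the other syngeneic arrays. Ctla4, the competitor of CD28 for its ligands, rose by 3.77 ± 0.42, Cd160 by 3.85 ± 0.39, the ectonucleotidase Entpd1 (CD39) by 3.20 ± 0.31, and the CD200 receptor Cd200r1 by 3.71 ± 0.33. Btla (0.24 ± 0.38, adjusted p = 0.643), Cd244a (-0.16 ± 0.19, adjusted p = 0.522) and the PD-1 ligand Cd274 (0.30 ± 0.19, adjusted p = 0.226) were not called, and Lair1, the collagen receptor, was the member called lower (-1.32 ± 0.47, adjusted p = 0.0407). Of 15 costimulatory receptors 8 were higher and 1 lower. Cd28 rose by 1.04 ± 0.14, its relative Icos by 1.39 ± 0.16 and the receptors Tnfrsf4 (OX40) and Tnfrsf18 (GITR) by 2.25 ± 0.29 and 1.42 ± 0.20. Tnfrsf9 (4-1BB) read 3.35, 3.29 and 3.47 against 3.13, 3.29 and 3.25 and was not called (adjusted p = 0.577). Tnfrsf14 (HVEM) fell by 0.94 on the log2 scale (SE 0.18, adjusted p = 0.00123).

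Transcription factors of effector and exhausted T cells were the list in which 16 of 20 measured members were higher and 0 lower (median difference 2.67). Prdm1, encoding the repressor BLIMP-1, read 2.89, 2.89 and 3.13 against -1.24, -1.20 and -1.84 (4.40 ± 0.25, adjusted p = 7.92e-08). Tox read 5.27, 5.11 and 5.66 against 2.03, 2.28 and 1.91, a 9.67-fold rise (3.27 ± 0.18, adjusted p = 6.32e-08). Tbx21, encoding T-bet, read 5.46, 5.50 and 4.93 against 2.04, 1.70 and 3.31, and its relative Eomes read 5.43, 5.35 and 5.71 against 3.46, 3.63 and 3.99. Both factors were thus higher on every allogeneic array, T-bet by 2.95 ± 0.33 (adjusted p = 2.22e-05) and Eomes by 1.80 ± 0.20 (adjusted p = 2.26e-05). Bhlhe40, a regulator of T cell cytokine output, rose by 5.15 ± 0.55, Nfil3 by 3.14 ± 0.43, Zeb2 by 3.06 ± 0.46, Irf4 by 2.86 ± 0.25 and its AP-1 partner Batf by 2.79 ± 0.16. Id2, an inhibitor of E proteins, read 5.87, 5.86 and 6.49 against 4.37, 4.65 and 4.90, without overlap, and was not called (1.43 ± 0.94, adjusted p = 0.242). Without the dim blocks, which here lie on arrays of other groups that share the estimate of the spread, the same difference had an adjusted p of 9.08e-05. Nfatc1 and Runx1 were not called (0.22 ± 0.13 and -0.30 ± 0.22), and Batf3 read -1.11, -1.26 and 0.57 against 1.17, 0.96 and 2.82 (adjusted p = 0.11, and 0.0163 without the dim blocks).

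The genes of naive and resting memory T cells ran the other way, with 22 of 25 measured members lower, 0 higher and a median difference of -1.91; the count of 22 was the same without each of the 6 arrays. Ccr7, the receptor that guides T cells into lymphoid tissue, read 2.81, 2.81 and 2.52 against 7.13, 7.12 and 7.11, a 21.2-fold fall (-4.41 ± 0.22, adjusted p = 3.71e-08). Tcf7 and Lef1 encode the HMG-box factors TCF-1 and LEF-1 that keep T cells in a naive or stem-like state. Tcf7 read 1.68, 1.78 and 1.67 against 3.93, 3.92 and 3.89, and Lef1 read 4.46, 4.45 and 3.96 against 6.94, 7.11 and 6.40. Tcf7 fell by 2.20 on the log2 scale (SE 0.13, adjusted p = 9.17e-08) and Lef1 5.76-fold (-2.53 ± 0.23, adjusted p = 3.9e-06). Il7r, the receptor for the survival cytokine IL-7, read 3.56, 3.47 and 2.87 against 5.24, 5.31 and 5.30 (-1.98 ± 0.24, adjusted p = 3.53e-05), and Bcl2, its anti-apoptotic target, fell by 1.04 on the log2 scale (SE 0.16, adjusted p = 0.000299). Further falls were those of Dapl1 (-4.40 ± 0.21), Nsg2 (-3.47 ± 0.15), the chromatin organiser Satb1 (-3.18 ± 0.31), the repressor Bach2 (-2.50 ± 0.32) and the forkhead factors Foxp1 (-1.87 ± 0.15) and Foxo1 (-1.12 ± 0.17). Il6ra, the binding chain for IL-6, varied among the allogeneic arrays. It averaged 0.35 ± 2.05 (SD, n = 3) against 6.03 ± 0.26 (SD, n = 3), without overlap (-5.68 ± 0.73, adjusted p = 6.53e-05). Id3 (-0.56 ± 0.33, adjusted p = 0.2), Igfbp4 and Ets1 were the members not called.

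Receptors that direct migration followed both patterns. Of 11 inflammatory chemokine receptors 7 were higher and 2 lower. Among the 9 above background on all 6 arrays, 6 were higher and 1 lower. Cx3cr1, the fractalkine receptor of cytotoxic effector cells, read 6.07, 6.07 and 5.18 against 0.53, 0.88 and -0.50 (5.47 ± 0.39, adjusted p = 4.83e-07). Cxcr6, found on tissue-homing CD8 cells, read 7.39, 7.45 and 7.72 against 4.79, 5.17 and 4.59 (2.67 ± 0.20, adjusted p = 6.62e-07). Cxcr3, the receptor for interferon-induced chemokines, read 6.38, 6.51 and 5.67 against 4.07, 4.03 and 4.93 (1.85 ± 0.28, adjusted p = 0.000262). All 3 receptors were without overlap between groups, and Ccr2 (1.84 ± 0.38) and Ccr6 (2.94 ± 0.29) were called too, with Ccr8 at least 3.84-fold higher. The difference of Ccr8 shrank to as little as 0.60 under 4 other scalings. Ccr9, the gut-homing receptor, read 0.45, 0.39 and -0.10 against 4.23, 4.08 and 2.74 and fell by 3.44 on the log2 scale (SE 0.52, adjusted p = 0.000258). On slide 2 alone 3 members of the list were called higher. Of 16 lymphoid homing and egress genes 5 were lower and 3 higher. Besides Ccr7, the lower ones included S1pr1, the exit receptor for sphingosine 1-phosphate, at 4.37, 4.37 and 3.64 against 5.92, 6.10 and 5.55 (-1.73 ± 0.26, adjusted p = 0.000211), its regulator Klf2 (-1.18 ± 0.21) and Cxcr4 (-1.19 ± 0.19). The higher ones were integrin chains, Itgal (1.69 ± 0.23), Itga4 (1.57 ± 0.17) and Itgb1 (1.86 ± 0.27). Cd69, which retains T cells in tissue by binding S1PR1, read 2.17, 2.18 and 3.31 against 2.79, 2.96 and 3.85 and was not called (difference -0.65, adjusted p = 0.413, and -0.32 without the dim blocks). Cd44, the hyaluronan receptor of antigen-experienced cells, read 2.18, 2.08 and 1.32 against 0.41, 0.27 and 1.27 (1.21 ± 0.29, adjusted p = 0.00529).

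Lectin-like NK receptors, which late effector CD8 cells also carry, were higher for 8 of 10 measured and lower for 1 (median difference 2.76). With the filter set to above background on all 6 arrays, 4 of 6 were higher and 1 lower (median 1.12). Klrg1, the marker of short-lived effector cells, read 3.80, 2.49 and 2.25 against -1.64, -2.43 and -3.88 (5.49 ± 0.51, adjusted p = 4.42e-06; 5.02 without the dim blocks). Klrc1 and Klrc3, of the NKG2 family, rose by 5.23 ± 0.46 and 5.07 ± 0.39, while their partner Klrd1 (CD94) rose by 0.67 ± 0.21 (adjusted p = 0.0254). For Klrc1 1 of 3 syngeneic arrays was well above background, and its rise shrank to as little as 3.01 under 4 other scalings. Klrg1 had 2 of 3 syngeneic arrays well above background, and its rise shrank to as little as 3.38. Ly49 genes were divided, with Klra7 lower (-1.95 ± 0.52, adjusted p = 0.0101) and Klra9 higher (1.57 ± 0.51, adjusted p = 0.0273). These genes form families of near-identical copies, so a probe may read several of them. Klrk1, encoding NKG2D, rose by 2.88 ± 0.59 (adjusted p = 0.00216). Of 10 NK cell genes 5 were higher and 2 lower, the higher ones being Gzma, Nkg7, Eomes, Cd7 and Klri2, and Tyrobp and Klra4 lower.

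Cytokine receptors changed in both directions, with 8 of 23 higher, 5 lower and a median difference of -0.19. Il2rb, the chain shared by the receptors for IL-2 and IL-15, read 6.24, 6.30 and 6.69 against 3.84, 3.61 and 4.45 (2.44 ± 0.21, adjusted p = 2.93e-06). Il2ra, the high-affinity IL-2 chain CD25, read 1.02, 0.57 and -0.34 against -2.99, -3.88 and -3.25 (3.79 ± 0.35, adjusted p = 4.05e-06), and the common chain Il2rg was not called (adjusted p = 0.381). Further receptor chains rose: the IL-12 chain Il12rb1 by 3.33 ± 0.17, the IL-18 chains Il18r1 and Il18rap by 2.07 ± 0.24 and 3.32 ± 0.40, the IL-33 receptor Il1rl1 by 4.86 ± 0.37 and the IL-10 receptor chain Il10ra by 2.58 ± 0.26. Il2ra and Il1rl1 had 2 of 3 syngeneic arrays well above background, and their rises shrank to as little as 1.93 and 2.74 under 4 other scalings. The largest fall after Il6ra was that of Ifngr2, the signalling chain for interferon gamma, at -1.91, -1.97 and -1.22 against 2.32, 2.18 and 1.95, a 14.4-fold difference (-3.85 ± 0.36, adjusted p = 4.49e-06). Its partner Ifngr1 read 5.94, 6.07 and 5.94 against 5.91, 6.29 and 6.17 and was not called (adjusted p = 0.466). Il4ra fell by 2.65 on the log2 scale (SE 0.32, adjusted p = 3.49e-05), with Tgfbr1 (-1.05 ± 0.14) and Il7r. Of 18 STAT and SOCS genes 4 were higher and 2 lower. Cish, a feedback inhibitor induced by IL-2 signalling, read 3.47, 3.42 and 3.42 against 0.83, 0.91 and 1.09 (2.49 ± 0.17, adjusted p = 2.96e-07). Stat4, which transmits IL-12 signals, rose by 0.82 ± 0.17, and Stat3 by 0.71 ± 0.17. Socs1 (-0.18 ± 0.24) and Socs3 (-0.13 ± 0.45) were not called.

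The cell cycle lists were called almost throughout. Of 40 measured genes of mitosis and chromosome segregation 40 were higher (median difference 3.89; 39 or 40 without each array, 38 on slide 1 alone and 35 on slide 2 alone), and of 44 genes of DNA replication 41 were higher and 1 lower (median 2.15). Genes kept through the allogeneic group alone could hardly be called lower here too. All 32 mitotic genes above background on all 6 arrays were higher (median 3.75). Of the 42 replication genes that passed this filter 39 were higher and 1 lower (median 2.14). In dividing cells the replication genes are switched on first, by E2F factors that bind sites related to TTTGGCGC. The mitotic genes are switched on later, by the MYB-MuvB complex, which binds the cell cycle homology region (CHR), and by NF-Y, which binds CCAAT boxes. The promoter sequences of genes from both lists are shown for these elements, 250 bases upstream of the transcription start of the gene from RefSeq on GRCm38.p6, 5′ to 3′ on the gene's strand. The letters searched were TTTGAA for the CHR, CCAAT for the CCAAT box, and TTTGGCGC, TTTCCCGC, TTTGCCGC and TTTCGCGC for E2F, each on both strands. Ccnb2 lies on the minus strand at chr9:70421555-70421804, Ube2c on the plus strand at chr2:164769679-164769928, Cdk1 on the minus strand at chr10:69352913-69353162 and Kif11 on the plus strand at chr19:37376132-37376381. They are 4 of the mitotic genes, and capitals mark the CHR and CCAAT matches.
Ccnb2: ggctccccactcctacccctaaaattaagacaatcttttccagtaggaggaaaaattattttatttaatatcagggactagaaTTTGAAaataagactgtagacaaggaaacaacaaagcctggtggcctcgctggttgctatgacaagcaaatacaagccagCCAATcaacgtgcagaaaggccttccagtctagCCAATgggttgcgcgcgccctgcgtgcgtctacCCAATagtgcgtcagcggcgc
Ube2c: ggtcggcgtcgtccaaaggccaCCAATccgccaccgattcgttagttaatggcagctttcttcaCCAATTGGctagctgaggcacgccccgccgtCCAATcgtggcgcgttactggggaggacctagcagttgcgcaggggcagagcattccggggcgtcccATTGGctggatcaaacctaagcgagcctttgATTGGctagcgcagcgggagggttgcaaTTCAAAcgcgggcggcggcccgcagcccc
Cdk1: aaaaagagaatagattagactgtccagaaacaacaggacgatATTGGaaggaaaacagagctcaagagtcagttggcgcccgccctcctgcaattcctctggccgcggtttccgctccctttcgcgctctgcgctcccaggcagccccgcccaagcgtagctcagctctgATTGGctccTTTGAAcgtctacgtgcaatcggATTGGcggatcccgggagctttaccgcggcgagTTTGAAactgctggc
Kif11: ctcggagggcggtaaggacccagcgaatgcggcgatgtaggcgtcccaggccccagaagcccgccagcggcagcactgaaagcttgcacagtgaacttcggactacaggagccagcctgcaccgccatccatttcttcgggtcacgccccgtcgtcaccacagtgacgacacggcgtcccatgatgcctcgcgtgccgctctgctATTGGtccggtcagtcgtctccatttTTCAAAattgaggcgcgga
In the Ube2c promoter 2 of the CCAAT matches, 1 on each strand, overlap. Mcm6 (minus strand, chr1:128359706-128359955), Rfc3 (minus strand, chr5:151651209-151651458) and Gins3 (plus strand, chr8:95633309-95633558) are 3 of the replication genes, the last being the member called lower, and capitals mark E2F matches, of which 2 in Mcm6 overlap.
Mcm6: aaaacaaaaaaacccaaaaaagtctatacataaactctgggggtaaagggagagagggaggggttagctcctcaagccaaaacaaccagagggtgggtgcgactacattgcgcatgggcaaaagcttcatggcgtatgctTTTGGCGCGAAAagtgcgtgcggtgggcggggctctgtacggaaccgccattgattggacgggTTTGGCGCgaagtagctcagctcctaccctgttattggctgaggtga
Rfc3: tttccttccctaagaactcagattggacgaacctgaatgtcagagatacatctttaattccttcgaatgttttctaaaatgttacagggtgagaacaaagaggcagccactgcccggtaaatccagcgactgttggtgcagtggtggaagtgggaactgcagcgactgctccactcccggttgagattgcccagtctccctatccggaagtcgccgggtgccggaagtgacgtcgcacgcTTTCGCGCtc
Gins3: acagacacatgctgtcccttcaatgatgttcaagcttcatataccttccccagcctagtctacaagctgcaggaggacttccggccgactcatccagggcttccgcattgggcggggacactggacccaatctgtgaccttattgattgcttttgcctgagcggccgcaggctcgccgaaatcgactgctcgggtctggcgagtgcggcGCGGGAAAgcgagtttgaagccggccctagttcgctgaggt
A match is a description of the letters and not a binding site. The replication genes shown were taken only from those with E2F letters upstream, so their matches were fixed by that choice. For the mitotic genes shown no match was required. Of the 36 promoters found for 34 of the mitotic genes, 41.7% held a CHR, 80.6% a CCAAT box and 38.9% both, against 11.2%, 35.2% and 4.15% of the 13179 promoters of all measured genes with a symbol. Of all 32851 promoters, 16% held a CHR, 33.8% a CCAAT box and 5.55% both. The replication promoters held a CHR in 14%, a CCAAT box in 60.5% and both in 11.6%. E2F letters stood in 5.56% of the mitotic promoters and 23.3% of the 43 promoters of 36 replication genes, against 3.04% of the promoters of measured genes and 1.86% of all. For the 33 promoters of 21 naive and memory genes the shares were 15.2% with a CHR, 24.2% with a CCAAT box and 0.00% with E2F letters. Promoters of 6 measured mitotic, 8 replication and 4 naive genes were not matched, and genes with several start sites count once per promoter.

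Mki67, encoding the proliferation antigen Ki-67, read 5.68, 5.72 and 5.90 against 1.67, 1.81 and 2.31, a 14.3-fold rise (3.84 ± 0.22, adjusted p = 9.75e-08). Ccnb2, a mitotic cyclin, read 5.80, 5.70 and 5.37 against 0.98, 1.14 and 1.38 (4.46 ± 0.16, adjusted p = 4.72e-09), and its kinase Cdk1 rose by 4.38 ± 0.21. Ube2c, the ubiquitin-conjugating enzyme of mitotic exit, read 3.83, 3.84 and 3.39 against -1.34, -1.23 and -0.79 (4.81 ± 0.20, adjusted p = 1.1e-08). Every one of these genes had all allogeneic arrays above all syngeneic arrays, as had the kinesin Kif11 (4.47 ± 0.25), the spindle organiser Prc1 (4.69 ± 0.17) and the apoptosis inhibitor and passenger protein Birc5 (4.12 ± 0.23). Cdca8, another chromosomal passenger, read 1.95, 5.21 and 5.27 against 1.24, 1.35 and 1.78, and its rise of 2.69 ± 0.65 was 3.78 without the dim blocks. Hmmr was the member with the smallest difference (0.44 ± 0.14, adjusted p = 0.0216), and its call was lost without any of 4 arrays. Among the replication genes, Mcm10 (4.19 ± 0.31), Tk1, thymidine kinase (4.40 ± 0.31), and Rrm2, the regulated subunit of ribonucleotide reductase (3.78 ± 0.25), were among the larger rises. The helicase subunits Mcm2, Mcm3, Mcm4, Mcm5, Mcm6 and Mcm7 rose by 1.16 to 2.29, of which Mcm6 went from 4.99, 4.87 and 5.10 to 7.38, 7.29 and 7.17. Rfc3, of the clamp loader, averaged 0.49 ± 0.74 (SD, n = 3) against -1.99 ± 0.07 (SD, n = 3) (2.47 ± 0.28, adjusted p = 2.1e-05). Gins3 read 5.38, 5.28 and 5.03 against 5.94, 5.79 and 5.66 (-0.56 ± 0.13, adjusted p = 0.00505) while its partners in the GINS complex, Gins1 (2.88 ± 0.25), Gins2 (3.11 ± 0.55) and Gins4 (0.90 ± 0.20), rose. Cdt1 and Tyms were not called (adjusted p = 0.643 and 0.241).

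Genes that restrain the cycle were measured in the same cells. Of 20 inhibitors, pocket proteins and cyclin D partners 10 were higher and 2 lower (median difference 0.84). Among the 19 above background on all 6 arrays, 9 were higher and 2 lower (median 0.61). Cdkn2a, the locus of the INK4A and ARF proteins, read 3.51, 3.89 and 3.93 against -2.88, -3.64 and -3.60, a 142-fold rise (7.15 ± 0.25, adjusted p = 4.24e-09). Its neighbour Cdkn2b read 0.50, 0.54 and 0.38 against -3.70, -3.32 and -1.97 (3.47 ± 0.38, adjusted p = 1.87e-05). Cdkn3, a phosphatase of CDKs that peaks in mitosis, rose by 4.70 ± 0.16, the pocket proteins Rbl2 and Rb1 by 2.09 ± 0.13 and 1.07 ± 0.14, and Cdkn1a by 1.85 ± 0.45. Cdk6, a kinase that INK4 proteins bind, was at least 5.80-fold higher, with no syngeneic array well above background. Its difference shrank to as little as 0.86 under 4 other scalings. Btg1 (-0.91 ± 0.14) and Btg2 (-0.79 ± 0.16), antiproliferative genes of resting cells, fell, and Cdkn1b was not called (-0.43 ± 0.23, adjusted p = 0.157). The number lower was 4 after quantile normalization and 5 after a different background correction.

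**Figure D3:**
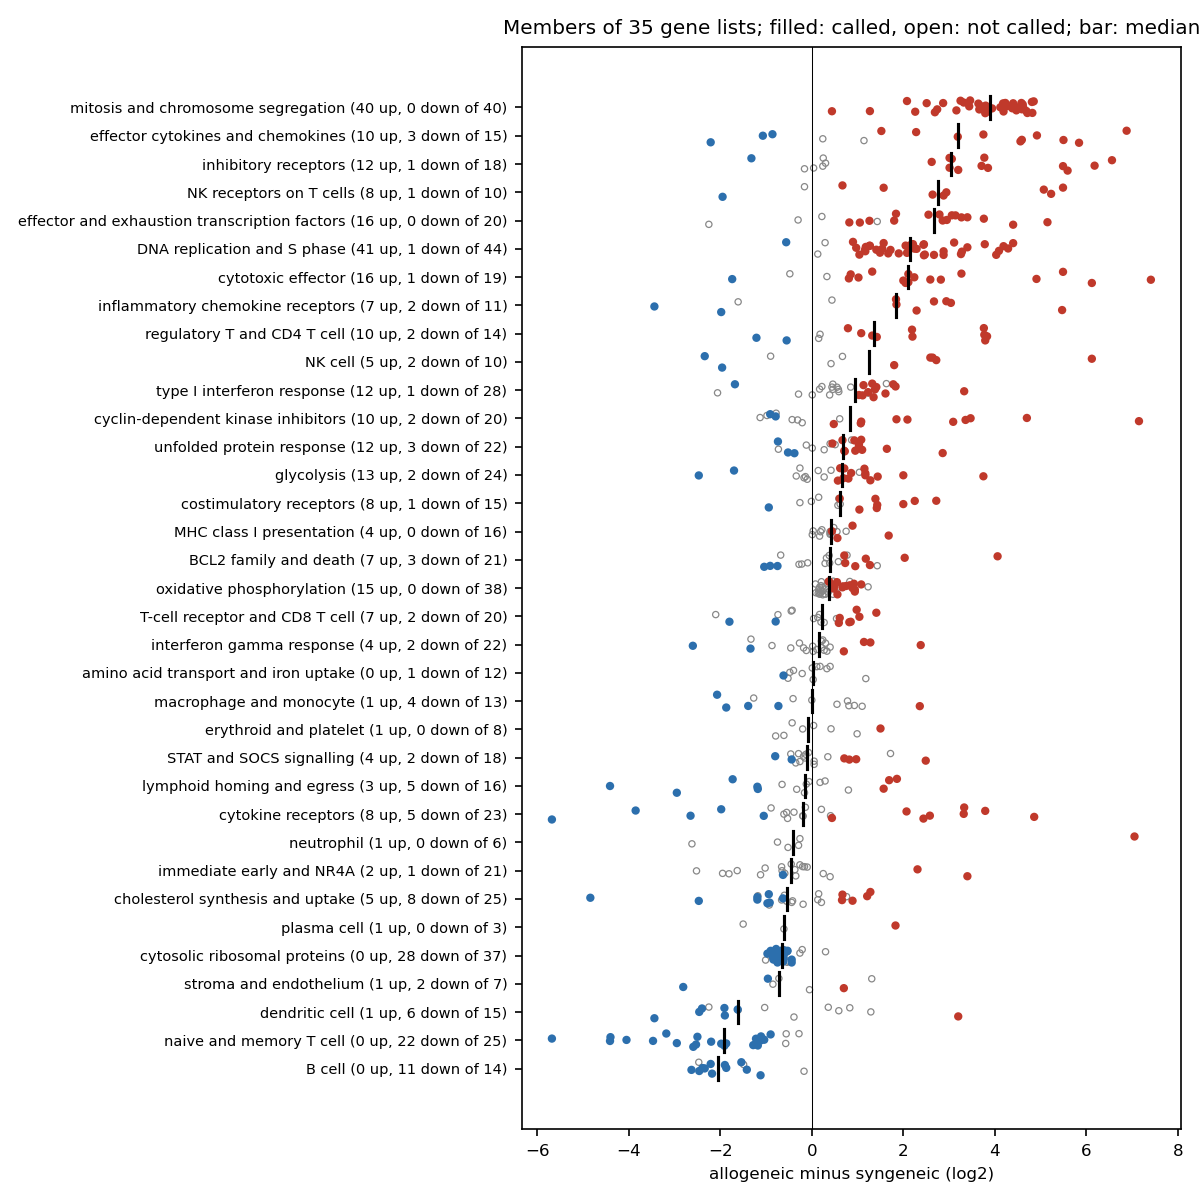
Allogeneic minus syngeneic log2 difference (horizontal axis) of each measured member of the 35 gene lists (rows), filled points where called and open points where not, with a bar at the median. All points of the mitosis list lie right of 0 with a median of 3.89, those of the naive and memory list lie left of it with a median of -1.91, and the oxidative phosphorylation list is narrow, from 0.08 to 1.23.

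Metabolic lists moved by smaller steps. Of 24 glycolysis genes 13 were higher and 2 lower (median 0.66). Gapdh read 8.03, 8.11 and 8.27 against 6.75, 6.46 and 6.88 (1.44 ± 0.14, adjusted p = 5.03e-06), Tpi1 rose by 2.00 ± 0.20, Pkm by 1.17 ± 0.16 and Ldha, which makes lactate, by 0.86 ± 0.16. Slc16a3, the lactate exporter MCT4, read 2.00, 2.15 and 2.08 against -1.45, -1.89 and -1.68, a 13.5-fold rise (3.75 ± 0.17, adjusted p = 1.69e-08). Pdk1, which keeps pyruvate out of mitochondria, went the other way, at -0.10, -0.60 and -0.54 against 2.04, 2.11 and 2.01 (-2.47 ± 0.18, adjusted p = 5.85e-07), as did Pfkfb4 (-1.70 ± 0.26). The glucose transporter Slc2a1 read 0.70, 3.07 and 2.98 against 2.51, 2.65 and 2.62, and its difference of -0.34 (adjusted p = 0.6) became 0.43 (adjusted p = 0.181) without the dim blocks. Of 38 genes of oxidative phosphorylation 15 were higher and 0 lower (median 0.38), and the number fell to 10 without syngeneic replicate 3 and to 0 on slide 2 alone. Cycs (0.94 ± 0.14), Cox5b (0.94 ± 0.14) and Sdhb (0.89 ± 0.16) had the smallest p there. Cholesterol genes were mixed, 5 higher and 8 lower of 25 (median -0.55). Mvk (-1.19 ± 0.15), Sqle (-0.92 ± 0.21) and the activator Srebf2 (-0.94 ± 0.25) were lower, while Fdft1 (1.28 ± 0.20) and Nsdhl (1.21 ± 0.25) were higher. Of 12 amino acid and iron uptake genes only Myc was called, lower by 0.63 on the log2 scale (SE 0.21, adjusted p = 0.0294), and that call was lost without allogeneic replicate 1 (adjusted p = 0.0524), allogeneic replicate 2 (0.117) or syngeneic replicate 3 (0.124). Of 22 genes of the unfolded protein response 12 were higher and 3 lower. The higher ones included the folding enzymes Creld2 (1.08 ± 0.16) and Dnajb11 (1.03 ± 0.17) and the sensors Atf6 (2.86 ± 0.47) and Ern1 (1.03 ± 0.19). Without allogeneic replicate 1 or syngeneic replicate 3, 9 were higher. Among the 20 above background on all 6 arrays, 11 were higher and 3 lower (median 0.59). Atf6 had 2 of 3 syngeneic arrays well above background, and its rise shrank to as little as 1.38 under 4 other scalings.

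The count for the cytosolic ribosomal proteins changed with the scaling. Of 37 measured members 28 were lower and 0 higher (median -0.65), for instance Rps9 at 8.55, 8.73 and 8.78 against 9.32, 9.35 and 9.52 (-0.71 ± 0.12, adjusted p = 0.000425) and Rplp1 at 8.49, 8.64 and 8.94 against 9.56, 9.64 and 9.78 (-0.97 ± 0.14, adjusted p = 0.000188). After quantile normalization between arrays 3 were lower and 2 higher with a median of -0.14, after normexp and quantile normalization 10 were lower and 2 higher with a median of -0.15, and on slide 2 alone 0 were called. Without each array in turn 19 to 32 were lower. The median was below 0 under each of these scalings, and its size and the number of calls depended on the scaling.

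Of 28 type I interferon response genes 12 were higher and 1 lower (median 0.94). Oas1a, an activator of RNase L, read 5.57, 5.53 and 5.27 against 2.32, 2.39 and 1.67, a 10.1-fold rise (3.33 ± 0.22, adjusted p = 2.77e-07), whereas its relative Oas2 read 0.89, 0.90 and 0.19 against 2.73, 2.56 and 1.72 and fell (-1.68 ± 0.32, adjusted p = 0.00142). The nucleic acid sensors Ifih1 (1.35 ± 0.16), Dhx58 (1.41 ± 0.20) and Zbp1 (1.61 ± 0.17) and the antiviral genes Cmpk2 (1.83 ± 0.22) and Rsad2 (1.78 ± 0.23) rose. Ifit1 (0.46 ± 0.32) and Isg15 (0.85 ± 0.32, adjusted p = 0.0518, and 0.046 without the dim blocks) were not called, and Usp18 read -2.71 in the dim blocks of allogeneic replicate 1 (-2.06 ± 0.90, and -0.55 without the dim blocks). Of 22 interferon gamma response genes 4 were higher, a share below the 24.9% of all genes with a symbol, and 2 lower (median 0.16, and -0.01 after quantile normalization). Gbp3 and Gbp7, guanylate-binding proteins, rose by 1.28 ± 0.18 and 1.14 ± 0.18, and Cxcl9, a ligand of CXCR3, read -1.69, -2.01 and -0.70 against 0.51, 1.02 and 1.89 and fell by 2.60 on the log2 scale (SE 0.46, adjusted p = 0.000809). Of 16 genes of MHC class I presentation 4 were higher, a share near the 24.9% of all genes with a symbol, and 0 lower. The 4 higher ones were Tap1, Psmb8, H2-K1 and Psmb5. That count was 7 after quantile normalization, 2 without syngeneic replicate 3 and 0 on slide 2 alone, and the class I heavy chains share sequence that a probe may not tell apart.

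Among 21 genes of the BCL2 family and of cell death 7 were higher and 3 lower. The pore formers Bak1 (1.18 ± 0.21) and Bax (0.73 ± 0.14), the initiator Bcl2l11 (BIM, 0.95 ± 0.14) and the protective Bcl2a1d (2.03 ± 0.31) rose, and Bcl2, Mcl1 (-0.75 ± 0.17) and Bbc3 (-0.91 ± 0.26) fell. Immediate early genes, which respond within minutes to stimulation or handling, were for the most part not called, 18 of 21 measured. Fos read 2.24, 2.06 and 4.30 against 3.97, 4.20 and 5.84, Atf3 read -3.63, -3.85 and -0.51 against -1.11, -1.32 and 1.98, and Klf6 read 5.32, 5.08 and 6.66 against 5.49, 5.62 and 7.01. In each of these genes replicate 3 was the highest array of its group, in allogeneic and in syngeneic cells. On slide 1 alone, which holds neither of these arrays, 7 of the list were lower. The exceptions were Nr4a2, a nuclear receptor induced by antigen receptor signals, at 5.04, 5.16 and 6.01 against 1.44, 2.05 and 2.51 (3.40 ± 0.63, adjusted p = 0.00106), and Ier3 (2.31 ± 0.38), with Myc lower, while Nr4a1 and Nr4a3 were not called.

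Genes named for regulatory and CD4 T cells were also higher, 10 of 14 measured, with 2 lower (Cd4 and Bcl6). With the filter set to above background on all 6 arrays, 7 of 11 were higher and 2 lower. Foxp3, the factor of regulatory T cells, read 0.35, -0.59 and -0.29 against -2.48, -2.36 and -2.29 (2.20 ± 0.36, adjusted p = 0.000456). Ikzf2, encoding HELIOS, read 2.55, 2.54 and 3.41 against -1.22, -0.36 and -1.22 (3.76 ± 0.29, adjusted p = 9.72e-07). Both groups were thus apart on every array, and Nrp1 (3.83 ± 0.33), Ikzf4 (2.19 ± 0.28) and Gata3 (0.79 ± 0.17) rose as well, beside Ctla4, Il2ra and Tnfrsf18. For Nrp1 1 of 3 syngeneic arrays was well above background, and its rise shrank to as little as 1.61 under 4 other scalings. Cd4 itself was lower and Zbtb7b, the CD4 lineage factor, was not called (adjusted p = 0.762). The part of other T cells in these values was not tested.

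The largest changes were for the most part those of genes in none of the lists. Tff1, a trefoil peptide otherwise known from gastric epithelium, read 6.00, 6.03 and 6.40 on the allogeneic arrays and -5.04, -4.29 and -5.78, not well above background, on the syngeneic arrays, and was at least 1441-fold higher (fitted difference 11.18 ± 0.39, adjusted p = 3.58e-09). Tmprss6, a liver serine protease that controls hepcidin, read 2.34, 2.37 and 3.53 and was at least 137-fold higher, and Epdr1, an ependymin-related protein, read 2.62, 2.00 and 3.14 and was at least 122-fold higher. Under 4 other scalings the differences of Tff1, Tmprss6 and Epdr1 shrank to as little as 8.09, 4.61 and 4.11, so these bounds hold for the main scaling only. The diphosphoinositol phosphatases Nudt11 and Nudt10 rose to at least 57.7-fold (Nudt11) and at least 35.3-fold (Nudt10) of the syngeneic level, the tyrosine phosphatase Ptpn5 at least 48.1-fold, Bace2, a relative of the beta-secretase, at least 63.1-fold, and Tmem273 at least 43.4-fold. Ltf, lactoferrin of neutrophil granules, was at least 39.1-fold higher, at 1.11, 0.91 and 0.80, while the other 5 measured neutrophil genes were not called. The monocarboxylate transporter Slc16a11 (7.39 ± 0.48), Gm4956 (7.35 ± 0.35) and the receptor kinase Insrr (6.91 ± 0.47) complete the 15 largest rises with Gzmb, Cdkn2a and Il21. Slc16a11 and Insrr had 2 of 3 syngeneic arrays well above background, and their rises shrank to as little as 4.78 and 3.30 under 4 other scalings. Of the 15 largest falls, Gp2, an antigen receptor of M cells, read -4.31, -6.64 and -6.02 against 1.70, 1.68 and 3.05 (-7.80 ± 0.73, adjusted p = 5.03e-06). Scg5, a secretory granule chaperone, read -3.64, -3.60 and -3.78 against 3.03, 3.09 and 2.51 (-6.55 ± 0.17, adjusted p = 7.52e-10), and Wnt5b read -3.53, -3.75 and -3.68 against 2.41, 2.30 and 1.77 (-5.82 ± 0.22, adjusted p = 5.01e-09). Tdrp, measured on all arrays, read 0.27, 0.04 and 0.14 against 5.47, 5.72 and 4.99 (-5.25 ± 0.24, adjusted p = 1.69e-08). These 3 genes hardly varied within a group. Scg5 and Wnt5b had 2 of 3 allogeneic arrays well above background. Their differences shrank to as little as -4.26 and -3.56 under 4 other scalings. Cpne4 was at least 62.0-fold lower, Col6a4 at least 39.8-fold, Mab21l3 at least 38.6-fold, Zcchc12 at least 26.9-fold, Apol7c at least 25.9-fold, Dmbt1 at least 18.0-fold and Rnd3 at least 16.5-fold lower, with no allogeneic array well above background. Under 4 other scalings the differences of Dmbt1 and Rnd3 shrank to as little as -1.17 and -1.15, and Rnd3 lost its call under 1 of them. Il6ra, Grm6 (-5.69 ± 0.65), Lypd6b (-5.50 ± 0.30) and Stc2 (-5.34 ± 0.51) complete that list. Gp2, Grm6 and Stc2 each had 1 of 3 allogeneic arrays well above background. Their differences shrank to as little as -3.90, -2.27 and -2.25 under 4 other scalings, so their sizes are not fixed. Over all genes with a symbol, 317 were called higher with no syngeneic array well above background and 99 lower with no allogeneic one.

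The slides gave the comparison separately. Of the 170 genes chosen for naming 167 were called. Since their groups hardly ever overlap over the 6 arrays, the same direction on both slides was fixed by that choice and is no separate support. Of the 167, 154 were called on slide 1 alone (allogeneic replicates 1 and 2 against syngeneic replicate 1), 103 on slide 2 alone (allogeneic replicate 3 against syngeneic replicates 2 and 3) and 167 with the slide as a block. Gzma differed by 5.98 on slide 1 and 6.64 on slide 2, Pdcd1 by 5.92 and 6.24, Tcf7 by -2.20 and -2.23, and Mki67 by 4.03 and 3.84. Differences that were smaller on slide 2 were those of Cd44 (1.72 and 0.55), Cxcr3 (2.38 and 1.19), Gzmk (3.62 and 2.46) and Tbx21 (3.44 and 2.43). Over all features 10407 were called on slide 1 alone and 2383 on slide 2 alone, where the lone array of a group is assumed to vary like the other groups. Of the 167 calls, 155 held without each of the 6 arrays in turn, and the 12 others were Cd8b1, Cd4, Tnf, Myc, H2-K1, Psmb5, Derl3, Lyz1, Lyz2, Itgam, Clec9a and Car2.

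**Figure D4:**
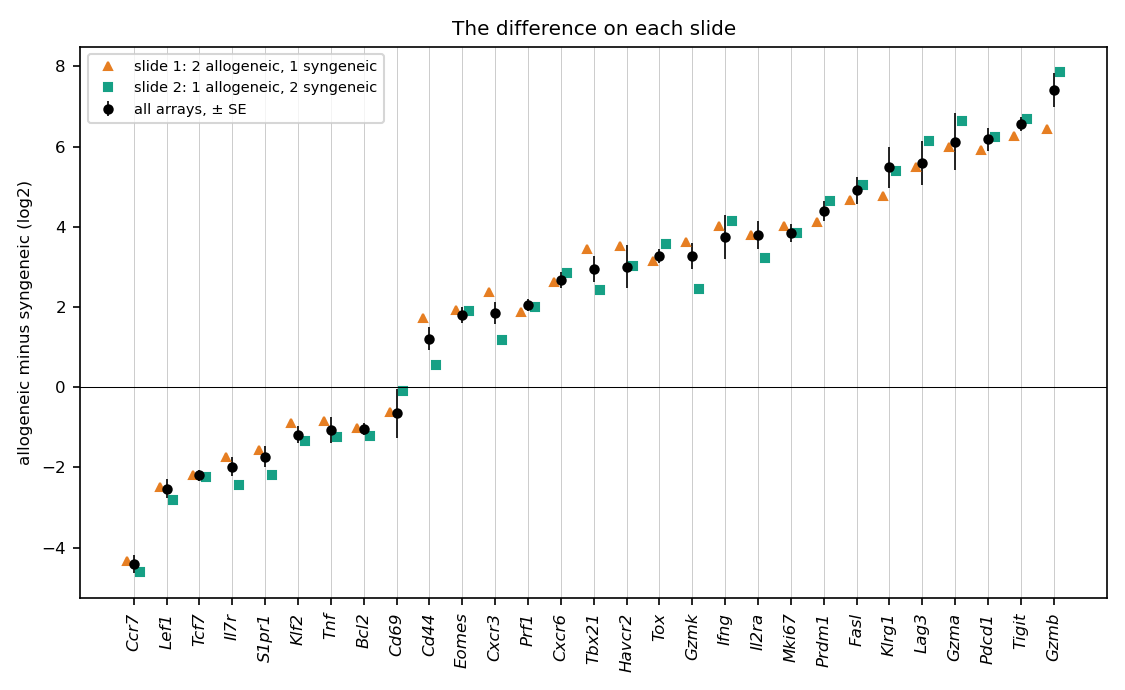
Allogeneic minus syngeneic log2 difference (vertical axis) of 29 of the named genes (horizontal axis), over all arrays with its standard error (points and bars), on slide 1 alone (triangles) and on slide 2 alone (squares). The slides differ in size for Cd44 (1.72 and 0.55) and Cxcr3 (2.38 and 1.19), while a shared sign is fixed for genes whose groups do not overlap.

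Whether the differences were those of CD8 cells was tested against splenic CD4 cells, as the CD8 difference minus the CD4 difference in the same fit. Of the 25105 features 2990 (11.9%) were called in this test, and of those with a symbol 1545 (11.9%). The CD4 groups have 2 arrays each, and CD4 allogeneic replicate 1 held 14 of the dim blocks. With the dim blocks left out, the count was 3387. The CD4 allogeneic arrays were also dimmer, with a 75th percentile of 140.7 and 67.56 units against 316.5 and 180.7 on the CD4 syngeneic arrays. Of their spots 49.6% and 41.84% were well above background, against 58.68% and 53.42%. The part of this in the CD4 differences was not tested. Of the 170 named genes 84 were called in this test. Many of them were chosen by their CD8 difference and some by this test itself, so their share cannot be set against the 11.9%. The CD4 differences themselves were not tested here and are given as values. The lists of killing and inhibitory receptor genes had 6 of 19 and 5 of 18 members called in this test. The difference of Fasl was 4.91 in CD8 and 0.56 in CD4 cells (difference of differences 4.35 ± 0.52, adjusted p = 0.000539), that of Gzma 6.12 and 0.85 (5.27 ± 1.13, adjusted p = 0.0124), and that of Prf1 2.05 with a CD4 value at 0 (2.05 ± 0.24, adjusted p = 0.000508). For Gzmb the differences were 7.41 and 4.98 (2.43 ± 0.64, adjusted p = 0.0331). Nkg7 had the larger difference in CD4 cells (2.59 and 3.38, adjusted p = 0.0502), just short of the threshold. For Ifng (3.75 and 2.11, adjusted p = 0.22), Ccl3 (5.84 and 4.22, adjusted p = 0.111), Ccl4 (4.59 and 4.22, adjusted p = 0.792) and Cxcr3 (1.85 and 1.91, adjusted p = 0.94) the difference between cell types was not past the threshold.

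Among inhibitory receptors the difference was larger in CD8 cells for Pdcd1 (6.18 and 2.73, difference 3.45 ± 0.45, adjusted p = 0.000915) and Tigit (6.56 and 4.00, 2.57 ± 0.29, adjusted p = 0.000433). For Lag3 (5.59 and 3.28) the test gave an adjusted p of 0.0949, and 0.0236 without the dim blocks. Cd160 had a difference of 3.85 in CD8 and -2.31 in CD4 cells (6.16 ± 0.61, adjusted p = 0.000189). Of the 25 naive and memory genes 6 were called in this test. The fall was deeper in CD8 cells for Ccr7 (-4.41 and -2.14, adjusted p = 0.00267) and Tcf7 (-2.20 and -0.32, adjusted p = 0.000302), and for Il7r the differences were -1.98 and 0.80 (-2.78 ± 0.37, adjusted p = 0.00115). Of the 40 mitosis genes 32 and of the 44 replication genes 32 were called in this test. The differences were 3.84 and 1.88 for Mki67 (adjusted p = 0.00556) and 4.46 and 1.52 for Ccnb2 (adjusted p = 7.62e-05). Eomes had the smaller difference in CD8 cells (1.80 and 3.11, -1.31 ± 0.32, adjusted p = 0.0232). Among called genes with a symbol, the largest differences of differences were those of Tmem273 (7.14 and -2.13, 9.27 ± 0.45), Epdr1 (8.61 and -0.28), Zbtb16, encoding the innate-like T cell factor PLZF (2.83 and -5.78, 8.61 ± 0.64), Tmprss6 (8.73 and 0.72) and Klrb1a (4.00 and -3.56). The fitted values of Tmem273, Epdr1, Tmprss6 and Klrb1a rest on syngeneic CD8 arrays that were not well above background, so their sizes and order are not fixed. In the other direction they were those of Mab21l3 (-6.30 and 1.93), Gp2 (-7.80 and -1.01), Clec4b2 (-4.86 and 1.75), Cxcl9 (-2.60 and 3.85, -6.46 ± 0.73, adjusted p = 0.000435) and Slc6a19 (-4.16 and 2.19), of which Mab21l3 and Clec4b2 had no allogeneic CD8 array well above background and Gp2 had 1 of 3. The filter did not require signal above background in CD4 cells. There the allogeneic and syngeneic means were -4.39 and -6.32 for Mab21l3, -4.81 and -6.56 for Clec4b2, and -4.37 and -6.56 for Slc6a19. Zbtb16 averaged -3.72 in allogeneic and 2.06 in syngeneic CD4 cells. The sizes of these CD4 differences are thus not fixed either.

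**Figure D5:**
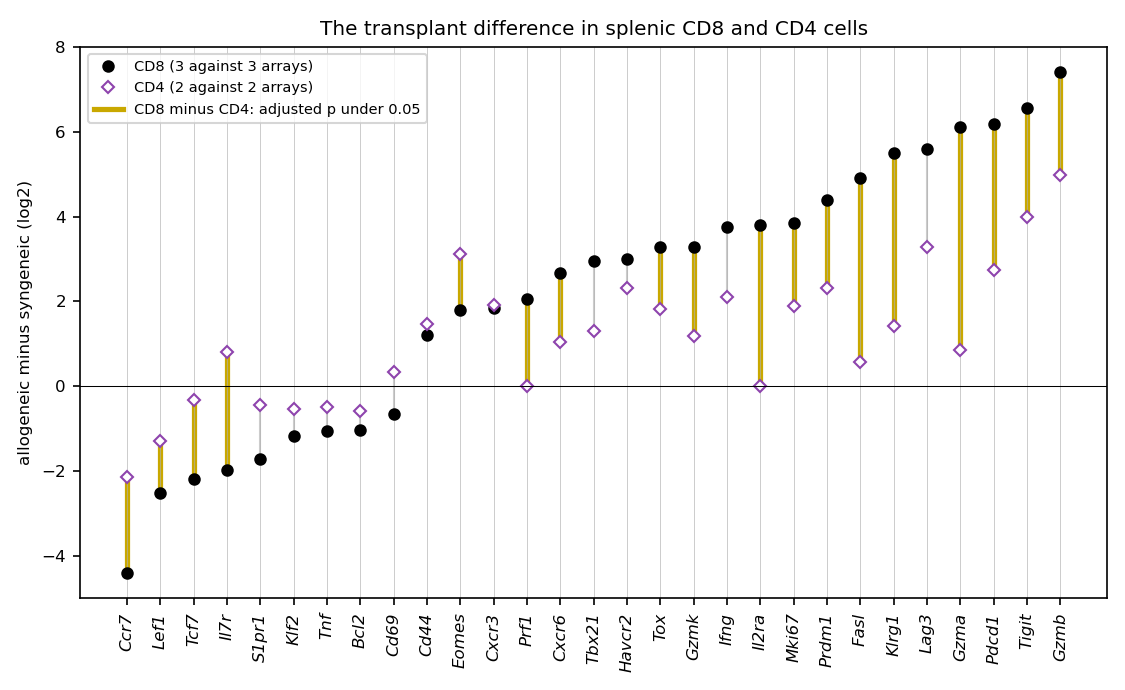
Allogeneic minus syngeneic log2 difference (vertical axis) of 29 of the named genes (horizontal axis) in splenic CD8 cells (dots) and splenic CD4 cells (diamonds), with a gold line where the difference between the cell types was called. The CD8 dot lies farther from 0 than the CD4 diamond for Fasl, Gzma, Pdcd1, Ccr7 and Tcf7, and 18 of the 29 genes have a gold line.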

How the data were processed

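Total RNA of the 16 samples was labelled with Cy3 on one-colour Agilent arrays, per the labels' protocols. The deposited scanner files hold processed signal intensity per spot from Agilent Feature Extraction 11.5.1.1, background-subtracted and not normalized between arrays, per the file headers. A deposited matrix of log2 values matched these intensities after scaling to the 75th percentile and centring each probe on its median over arrays, as found from the values and not stated in the sources used here.

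For each array, log2 processed signal minus its 75th percentile over non-control spots was used, outlier spots were set to missing, and spots of a probe were averaged. Of 55681 probes, 27656 were named through RefSeq accessions (GRCm38.p6 table), giving 20972 symbols, and 28025 were unnamed. Probes well above background on every array of either group (29117) were kept, and the probe with the highest mean stood for a gene, giving 25105 features. limma 3.58.1 in R 4.3.3 fitted 1 mean per group over all 16 arrays, with Benjamini-Hochberg adjusted p-values over all features. The script was tested on simulated data.

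Genes were named by rule: the 15 largest rises and 15 largest falls among called genes whose groups did not overlap and whose brighter group was above background on all its arrays; up to 4 called members per list with the smallest p; 31 genes given in any case; 4 sort markers; and the 5 largest interactions in each direction. Other list members were named as examples after their values were seen. The comparison and the 35 gene lists were chosen with earlier results of these data known. The alternatives covered normalization, background correction, filters, probes per gene, slide, replicate block, variance model, call rule and leaving out each array. The normexp correction used median signals. The number of arrays limits the precision. Some genes that the rule names are not reported here.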

Additional observations from a re-analysis of the deposited data

Results flagged for a closer look

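The transplant difference in splenic CD8 cells was tested against that in splenic CD4 cells, and 2990 of 25105 features (11.9%) were called. The counts of list members below are to be read against this share. The CD4 groups have 2 arrays each, and the CD4 allogeneic arrays were dimmer than the CD4 syngeneic ones. The values given are the CD8 difference minus the CD4 difference on the log2 scale. Of 19 killing genes 6 and of 18 genes of the inhibitory receptor list 5 were called in this test, and Nkg7 had a value of -0.79 (limma, adjusted p = 0.0502). Among the called genes, the values were 5.27 for Gzma, 2.43 for Gzmb, 2.09 for Gzmk, 4.35 for Fasl, 2.05 for Prf1, 3.45 for Pdcd1 and 2.57 for Tigit. The receptors Klrg1 (4.07), Il2ra (3.78) and Cxcr6 (1.63), the transcription factor genes Tox (1.45) and Prdm1 (2.08), and Mki67 (1.96) had positive values too. Negative values were those of Ccr7 (-2.27), Tcf7 (-1.88), Lef1 (-1.24), Il7r (-2.78) and Eomes (-1.31). The 5 largest positive fitted values were those of Tmem273 (9.27), Epdr1 (8.89), Zbtb16 (8.61), Tmprss6 (8.01) and Klrb1a (7.56). The 5 largest negative fitted values were those of Mab21l3 (-8.22), Gp2 (-6.79), Clec4b2 (-6.62), Cxcl9 (-6.46) and Slc6a19 (-6.36). In Tmem273, Epdr1, Tmprss6 and Klrb1a the syngeneic and in Mab21l3 and Clec4b2 the allogeneic CD8 arrays were not well above background, so their sizes and order are not fixed. Signal above background in CD4 cells was not required. Slc6a19 averaged -4.37 in allogeneic and -6.56 in syngeneic CD4 cells, and Zbtb16 -3.72 and 2.06, so their sizes are not fixed either.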

How the results depend on the processing

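Of the 167 called genes chosen for naming, 159 kept their call under 4 scalings, 155 without each of the 6 arrays and 99 under each of the 23 alternatives that measured them, and none changed direction where it was measured (130 of the 170 genes passed the filter on all 6 arrays, and all 170 were measured under the other alternatives). Against 10012 features called, 2383 were called on slide 2 alone, where 60% of the calls were higher against 45.6% otherwise, and 17557 with array weights. List members called numbered 385, and 170 on slide 2 alone. Against 2990 features called in the test of CD8 against CD4 differences, 1078 were called with no filter on dim probes and 1534 for differences beyond 1.2-fold. Leaving out 1 splenic CD8 array gave 1720 to 4710, with 1885 without allogeneic replicate 1, 1904 without allogeneic replicate 2, 1720 without syngeneic replicate 2 and 4710 without allogeneic replicate 3. The cause was not tested. With the replicate number as a block 11065 features were called, but same-numbered arrays correlated in their deviations at 0.275, 0.0404 and 0.355, so the numbers were not taken to pair the samples, and allogeneic replicate 2 did not correlate best with its own number. Normexp correction moved the median difference by 0.12 and shrank the differences of 63 of the 170 genes by over 1.5 times. Probes not well above background in a group give bounds only, and these bounds hold for the main scaling. Where only some arrays of a group were well above background, the size of the difference depends on the scaling.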
